A study of Homo sapiens with 3 samples.

Results

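Gene expression in MDA-MB-231 cells given the peptide ERα17p was compared directly with that in the same line given estradiol. The 2 arrays were chosen by their treatment labels from the 3 arrays of the study. The vehicle array is not subtracted in the difference between them. It is printed beside their values, serves to describe their layout and spread, and enters an alternative normalisation. MDA-MB-231 is an established human breast cancer line with mesenchymal-like features and is usually regarded as lacking the oestrogen receptor alpha (ERα). Cells of all 3 groups first spent 4 h in 10% serum stripped of steroids with charcoal, and treatment then lasted 3 h. One group received estradiol at 1 µM, one received ERα17p at 1 µM, and the vehicle group received 0.1% ethanol. No source used here names the solvent of the peptide, and any difference in solvent cannot be told apart from the difference between the agents. Each group had 1 array of the Affymetrix HG-U133 Plus 2 type. With 1 array a group there is no replicate error and no test, and every value below describes these arrays.

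Estradiol is the main natural oestrogen. It acts mostly through the nuclear receptors ERα and ERβ, which bind DNA and recruit co-regulators, and it also binds the membrane receptor GPER1. ERα17p is a short peptide derived from ERα. Interferon-stimulated genes encode antiviral proteins and are switched on after a cell senses interferon.

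The values are on a log2 scale and had been centred probe set by probe set before deposit, on a reference that is not described. A value of 0 is therefore that reference and not absence of expression, and neither levels nor detection can be read from these data. For the same reason the cell type markers cannot show which genes the line expresses. Genes were measured by 41097 probe sets paired with 1 symbol each, which gave 19775 genes. A gene's difference is the median over its probe sets of the ERα17p value minus the estradiol value, so a negative difference means a lower value with the peptide. For genes with several probe sets it need not equal the gap between the gene's 2 array values, which are medians of their own.

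Control probe sets put the technical spread of this pair in view. Labelling spikes, foreign transcripts mixed into the RNA ahead of labelling, differed by a median log2 of 0.00 (SD 0.13 over 27 probe sets), and their median values were 0.20 with estradiol, 0.21 with ERα17p and -1.60 with vehicle. Hybridisation spikes were 0.15 lower with ERα17p, a log2 difference of -0.15 (SD 0.06 over 18 probe sets). Their median values were 0.09 with estradiol, -0.06 with ERα17p and 0.89 with vehicle, so both kinds of spike set the vehicle array apart. Signal for 18S ribosomal RNA was higher by 0.53 with ERα17p. The 5′ probe set of ACTB differed by -0.65 and its 3′ probe set by -0.07, whereas GAPDH differed by -0.06 and 0.03 at the same ends. The 18S and 5′ ACTB signals thus differed between the arrays, and their part in the results was not tested.

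Differences between the treated arrays were mostly small. The standard deviation over all genes was 0.25, compared with 0.52 for estradiol against vehicle and 0.51 for ERα17p against vehicle. The vehicle array itself was the wider one, with an SD over all probe sets of 0.49, against 0.26 with estradiol and 0.24 with ERα17p. Its spikes also lay apart, and the technical part of any distance from vehicle given here was not tested. Between the treated arrays, the central 98% of genes lay between -0.70 and 0.62. At least 2-fold higher values with ERα17p were found for 7 genes (0.0354% of those measured) and at least 2-fold lower values for 42 genes (0.212%). At the 1.5-fold limit, used below for members of gene lists, 255 genes were higher (1.29%) and 404 were lower (2.04%). The list counts below are read against these shares. Differences lay above 0 for 9234 genes (46.7%) and below 0 for 10461 (52.9%), with a median of -0.01.

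**Figure D1:**
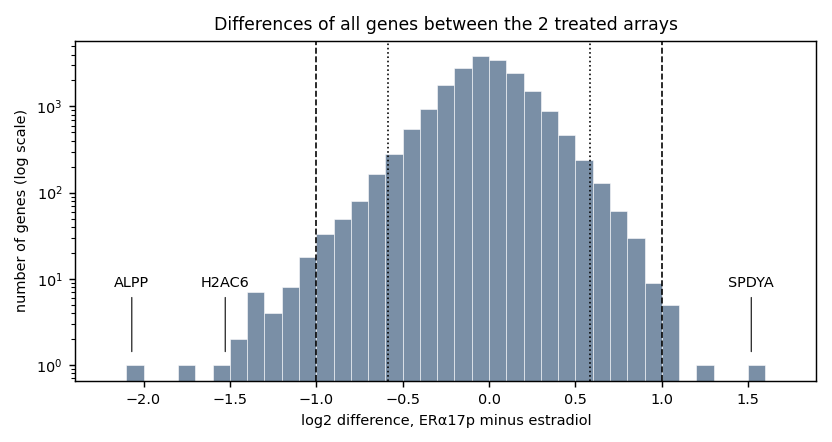
Histogram of the log2 difference (ERα17p minus estradiol) of 19775 genes, with the number of genes on a log scale; dotted lines mark 1.5-fold and dashed lines 2-fold. The lower tail is the longer one, with 42 genes at least 2-fold lower and 7 at least 2-fold higher.

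The gene with the largest difference was ALPP, placental alkaline phosphatase. Its value was 1.84 with estradiol and -0.23 with ERα17p, beside -0.08 on the vehicle array. The difference of -2.07 corresponds to a 4.19-fold lower value with the peptide. Only the estradiol array stood high for this gene. Its relatives did not share the size of this difference: ALPI, the intestinal form, differed by -0.21, ALPG, the germ cell form, by -0.09 and ALPL, the tissue non-specific form, by 0.03.

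Other genes that were high on the estradiol array alone were CTHRC1 and TIMP4. CTHRC1, a secreted protein with a collagen repeat, read 1.46 with estradiol, 0.08 with ERα17p and -1.11 with vehicle, a difference of -1.38. TIMP4, an inhibitor of matrix metalloproteinases, read 1.32 with estradiol, -0.03 with ERα17p and 0.01 with vehicle, a difference of -1.34. STAT4, a transcription factor of the interleukin 12 pathway, read 0.79, -0.54 and 0.34 in the same order. For STAT4 the vehicle array lay between the treated arrays.

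A second kind of gene was low on the ERα17p array alone. LCP1, the actin-bundling protein L-plastin, read 0.00 with estradiol, -1.46 with ERα17p and 0.49 with vehicle, a difference of -1.46. UCA1, a long non-coding RNA first known from bladder cancer, read 0.30, -1.10 and 0.93 and differed by -1.40. The antisense and divergent transcripts TOLLIP-DT and DLG1-AS1 belonged here too. TOLLIP-DT read 0.67, -1.11 and 0.20 and differed by -1.78, and DLG1-AS1 read 0.62, -0.82 and 0.58 and differed by -1.43. The remaining members of the 12 lowest were the histone H2AC6 (-1.53), described below, the pseudogenes ANKRD20A5P (-1.37) and ZNF137P (-1.34), and the uncharacterised LOC730101 (-1.33).

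Among the genes higher with ERα17p, SPDYA stood farthest out. SPDYA encodes a cyclin-like activator of cyclin-dependent kinases and read 1.40 with ERα17p, -0.12 with estradiol and 0.00 with vehicle, a difference of 1.52 (2.86-fold). DCAF4L1, a WD-repeat protein, read 1.26, 0.01 and -0.13 in the same order, a difference of 1.25. Both were high on the ERα17p array alone. The sterol transporter ABCG8 had the opposite layout: it read 0.16 with ERα17p, -0.93 with estradiol and -0.03 with vehicle, so that its difference of 1.09 came with a low estradiol value. AGAP4 (1.09), MINAR1 (1.07), ALDH3A1 (1.03) and LOC101927164 completed the 7 genes past 2-fold. Below them lay USP43 (0.997), TMC3-AS1 (0.99), UTF1 (0.98), LINC00622 (0.97) and LINC01523 (0.95).

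These extremes rest on little probe evidence. All 24 genes at these extremes, 12 on each side, were measured by 1 probe set, and so were 39 of the 42 genes at least 2-fold lower. Over all genes 46.8% had 1 probe set, against 80% of the 255 genes at least 1.5-fold higher and 78.7% of the 404 genes at least 1.5-fold lower. Genes with several probe sets are summarised by a median, which narrows their spread. Long non-coding RNAs made up 13.4% of all genes, 18.8% of the higher genes and 26.2% of the lower genes. Protein-coding genes spanned a median of 28.5 kb over all genes, 20.2 kb among the higher and 18.6 kb among the lower.

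Genes whose separate probe sets differ in 1 direction carry more evidence within these arrays, although the probe sets share the same RNA. Of 10523 genes with several probe sets, 1763 (16.8%) were higher with ERα17p on all of them and 2094 (19.9%) were lower on all of them. Ranked by the probe set nearest to 0, the most concordant lower genes were C11orf71, FAM218A, EFEMP2, H2BC5, OASL, ADGRB3, GSAP, ATPAF2, ABCC12 and OR2H2. Of these, C11orf71, EFEMP2, H2BC5 and GSAP were measured only by probe sets that match several transcripts. For them, agreement between probe sets need not come from that gene alone. EFEMP2, a fibulin needed for elastic fibres, differed by -1.03 and -0.79 on its probe sets and read -0.05 with estradiol against -0.96 with ERα17p. GSAP, the gamma-secretase activating protein, differed by -0.74 and -0.71. OASL is an interferon-stimulated gene and H2BC5 a histone gene, and both groups are described below.

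On the higher side the concordant genes were HAS2, FAM111B, ZNF37A, HSP90B1, SMARCD3, RP9, EFNB2, GRHL1, TICRR and COL26A1. HAS2, which makes the matrix polymer hyaluronan, read -0.87 with estradiol, -0.05 with ERα17p and 0.28 with vehicle, and its probe sets differed by 0.78 and 0.85. The estradiol array was the low one for HAS2. FAM111B, a protease linked to replicating cells, read -0.09, 0.69 and 1.17 in that order and differed by 0.79. HSP90B1, the chaperone GRP94 of the endoplasmic reticulum, read -0.47, 0.23 and 0.74 and differed by 0.70, on 2 probe sets that both match several transcripts. EFNB2, a membrane ligand of Eph receptors, differed by 0.53 and 1.24 on its probe sets.

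**Figure D2:**
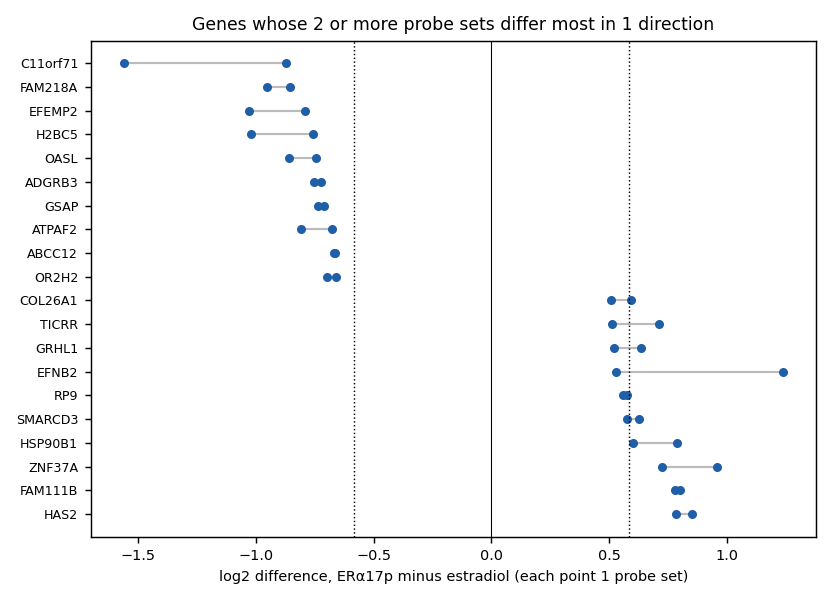
Log2 difference (ERα17p minus estradiol, x axis) of every probe set, 1 point each, for the 20 genes with several probe sets that were most concordant in 1 direction; dotted lines mark 1.5-fold. The probe sets of C11orf71, which match several transcripts, lie at -1.56 and -0.87, and those of HAS2 at 0.78 and 0.85.

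Type I interferon-stimulated genes mostly had lower values with ERα17p than with estradiol. Of 50 measured genes, 44 lay below 0 and 6 above it, where 52.9% of all genes lay below 0. With the probe set nearest to 0 for each gene, 38 lay below 0 and 11 above, with a median of -0.18. Once probe sets that match several transcripts were dropped, 32 of the 40 members left lay below 0. At least 1.5-fold lower values were found for 9 members (18% of the list, beside 2.04% of all genes), and none was 1.5-fold higher. The list's median difference was -0.23, beside -0.01 for all genes. Of the 25 members with several probe sets, 11 were lower with ERα17p on all of them and 0 higher on all. The median value of the list was 0.23 with estradiol, 0.04 with ERα17p and -0.23 with vehicle. The 18S signal (0.53) and the 5′ ACTB probe set (-0.65) also differed between these arrays, and their part in the lower values of this list, and of the lists below, was not tested. In RNA from a whole culture, fewer responding cells and less RNA per cell cannot be told apart.

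The members farthest down encode classical antiviral effectors. IFIT1, which binds viral RNA that lacks the host cap methylation, read 1.06 with estradiol, 0.00 with ERα17p and -0.10 with vehicle, a difference of -1.06. MX1, a dynamin-like GTPase that traps viral components, read 0.82, 0.07 and 0.00 and differed by -0.75. For both genes the ERα17p array lay close to the vehicle array. OAS1, which makes the 2′-5′ oligoadenylates that activate RNase L, read 0.86 with estradiol, 0.11 with ERα17p and -0.52 with vehicle, with probe set differences of -0.91 and -0.60. OASL, a related protein without that enzyme activity, read 0.95, 0.15 and -0.35 and differed by -0.81. Here the peptide array lay between the other arrays.

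SAMD9L, a growth-restraining antiviral factor, differed by -1.01, but its 3 probe sets ran from -1.11 to 0.00. IRF9, a DNA-binding factor of the interferon response, read 0.18 with estradiol, -0.46 with ERα17p and 0.07 with vehicle, a difference of -0.64. The ubiquitin ligases TRIM21 and TRIM22 differed by -0.62 and -0.60. LAMP3, a lysosomal membrane protein, differed by -0.59 and was the ninth member past 1.5-fold. Just short of it lay DHX58 (-0.53), a relative of the RNA sensor RIG-I, and IFIT3 and IFIT2, both at -0.50. The ubiquitin-like modifier ISG15 differed by -0.47.

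Members that did not share the lower values are as informative for the extent of the pattern. The 6 members above 0 were EIF2AK2, the RNA-activated kinase PKR (0.13), PARP14 (0.12), BST2, the virus-tethering protein tetherin (0.11), ZC3HAV1 (0.05), IFI27 (0.03) and PLSCR1 (0.02). IFI27 had the lowest vehicle value of these, -2.06, while its estradiol and ERα17p values were 0.01 and 0.04.

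**Figure D3:**
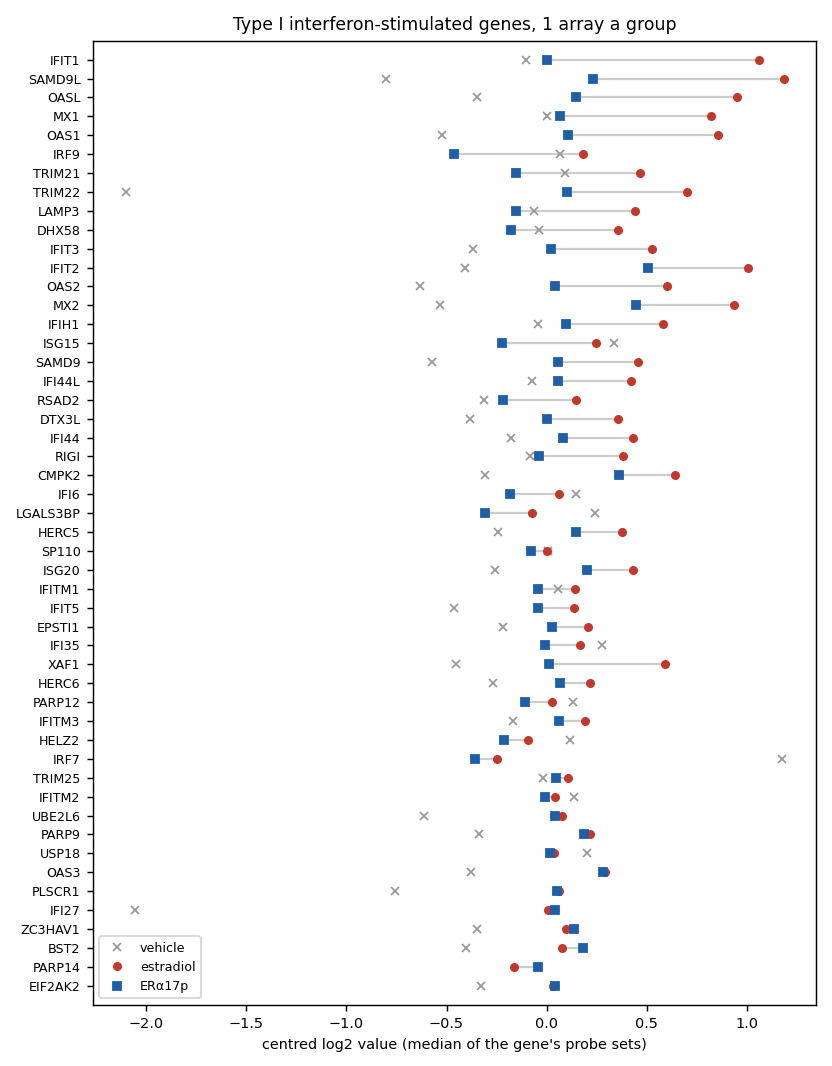
Centred log2 values (x axis) of 50 type I interferon-stimulated genes on the vehicle, estradiol and ERα17p arrays, ordered by the median difference over probe sets, with a grey line joining the treated arrays. The estradiol array lies to the right of the ERα17p array for most genes, and the list medians were 0.23 and 0.04.

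The interferon-stimulated response element, a DNA site common in promoters of these genes, was searched as GAAANNGAAA on both strands of RefSeq promoter windows of 300 bases that end just after the start site (GRCh38.p14). It was present in 1255 of 35116 windows (3.57%). A match describes letters only and is no evidence of binding. The sites of IFIT1, MX1, TRIM21 and ISG15, which had lower values with ERα17p, are shown beside those of BST2 and EIF2AK2, which lay above 0, because they hold the same motif. Each is read in the direction of its gene, with the match in capitals and 12 bases on each side.
IFIT1, chr10:89392508-89392541, plus strand: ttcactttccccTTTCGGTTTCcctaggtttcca
MX1, chr21:41420557-41420590, plus strand: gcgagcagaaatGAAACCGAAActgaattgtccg
TRIM21, chr11:4393664-4393697, minus strand: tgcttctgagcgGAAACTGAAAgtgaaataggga
ISG15, chr1:1013378-1013411, plus strand: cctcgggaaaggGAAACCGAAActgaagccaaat
BST2, chr19:17405733-17405766, minus strand: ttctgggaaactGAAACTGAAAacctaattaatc
EIF2AK2, chr2:37156965-37156998, minus strand: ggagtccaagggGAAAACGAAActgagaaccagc

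The motif did not divide the interferon-stimulated genes by their difference. The 27 members with a match had a median of -0.23, with 22 of them below 0, and the 13 members without one had a median of -0.18, with 12 below 0. The other 10 members were not in the promoter table and had a median of -0.49. Among genes outside the interferon lists, the 580 with a match had a median of -0.01, and 12 of them (2.07%) were at least 1.5-fold lower, a share close to the 2.04% of all genes.

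Genes that sense viral nucleic acid or carry the interferon signal did not stand apart as a list. The median of the 25 measured interferons, receptors and induction genes was 0.01, with 13 above 0 and 12 below. IFNB1, which encodes interferon beta, differed by -0.02. IFNL1, a type III interferon, differed by -0.59 on its single probe set. TLR3, the endosomal sensor of double-stranded RNA, differed by -0.60 as a median of 3 probe sets that ran from -1.40 to 0.05. STING1, the adaptor of cytosolic DNA sensing, read 0.12 with estradiol and -0.44 with ERα17p, a difference of -0.56. Its partner enzyme CGAS and the kinase JAK2 lay on the other side, each with a difference of 0.49. The 3 probe sets of CGAS ran from -0.08 to 0.58, and the 3 of JAK2 from 0.34 to 0.51.

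Genes more typical of interferon gamma were mixed. Of 13 measured, 1 was past 1.5-fold on each side, and the median was -0.02. CXCL11, a chemokine for activated T cells, read 1.25 with estradiol, 0.09 with ERα17p and -0.62 with vehicle, and its probe sets differed by -1.69 and -0.65. CXCL10, which binds the same receptor, differed by -0.46, whereas CXCL9, the remaining ligand of that receptor, differed by 0.67. Class I antigen presentation genes had a median of -0.02 over 16 members, with none past 1.5-fold.

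All 9 measured MHC class II genes, which present peptides to helper T cells, lay below 0, with a median of -0.15. With the probe set nearest to 0 the count was 8 of 9, and once probe sets with several target transcripts were dropped it was 5 of 7. HLA-DMB, a chain of the peptide-loading molecule HLA-DM, differed by -0.70 and was the member past 1.5-fold. HLA-DRA read 0.64 with estradiol, 0.20 with ERα17p and -3.91 with vehicle, and its probe sets differed by -0.45 and -0.43. The distance of both treated arrays from vehicle was far larger for this gene than the distance between them. CIITA, the coactivator that drives class II genes, differed by 0.36 with probe sets from -0.26 to 0.76.

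Inflammatory targets of NF-kB were lower with ERα17p for 19 of 27 members, with a median of -0.20, and 2 members were past 1.5-fold. With the probe set nearest to 0 for each gene, the median was -0.08 and 1 member was past 1.5-fold. ICAM1, an adhesion molecule for leukocytes, read 0.81 with estradiol, 0.08 with ERα17p and -1.82 with vehicle, and its 3 probe sets ran from -0.87 to -0.25. SOD2, the mitochondrial superoxide dismutase, read -0.03, -0.65 and 1.77 in that order and differed by -0.62. The cytokines and chemokines IL1A (-0.53), CCL20 (-0.47), CXCL8 (-0.44) and IL6 (-0.43) were lower as well. NFKBIA and TNFAIP3, inhibitors induced by NF-kB itself, differed by 0.03 and 0.00, and VCAM1 differed by 0.39.

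Replication-dependent histone genes make most of the histone protein of dividing cells, and their messages end in a stem-loop rather than a poly(A) tail. The values here do not show which form of message gave the signal of these genes. Of 42 measured, 8 were at least 1.5-fold lower with ERα17p (19%, beside 2.04% of all genes) and 0 were 1.5-fold higher, yet the median of the list was -0.10. The differences gathered in the H2B class, where 10 of 13 genes lay below 0, 5 were past 1.5-fold and the median was -0.47. The medians of the other classes were 0.00 for H1, -0.11 for H2A, 0.03 for H3 and 0.06 for H4. When probe sets built to match several transcripts were left out, the H2B median was -0.10 over 9 genes with 1 past 1.5-fold, and the median of all histones was -0.03. Of the 8 lower histone genes, 5 were measured by such probe sets alone, so which copy the signal came from is uncertain.

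H2AC6 had the largest difference of the family: it read 0.38 with estradiol, -1.15 with ERα17p and 0.12 with vehicle, a difference of -1.53. H2BC21 read 0.86, -0.27 and 0.42 and differed by -1.13. H2BC5, with a difference of -0.89, H2BC9, with -0.79, and H2BC6, with -0.67, also lay lowest on the ERα17p array. These 5 genes were measured only by probe sets that match several transcripts. H1-2, a linker histone, read -0.18 with estradiol, -0.95 with ERα17p and 1.04 with vehicle on a probe set without that mark, a difference of -0.76. H2BC12 read -0.18, -0.79 and 0.35 on another such probe set, a difference of -0.61. H4C8 differed by -0.64 as the median of -0.97 and -0.31. Members on the other side were H1-4 (0.51), H4C1 (0.50) and H4C5 (0.41).

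**Figure D4:**
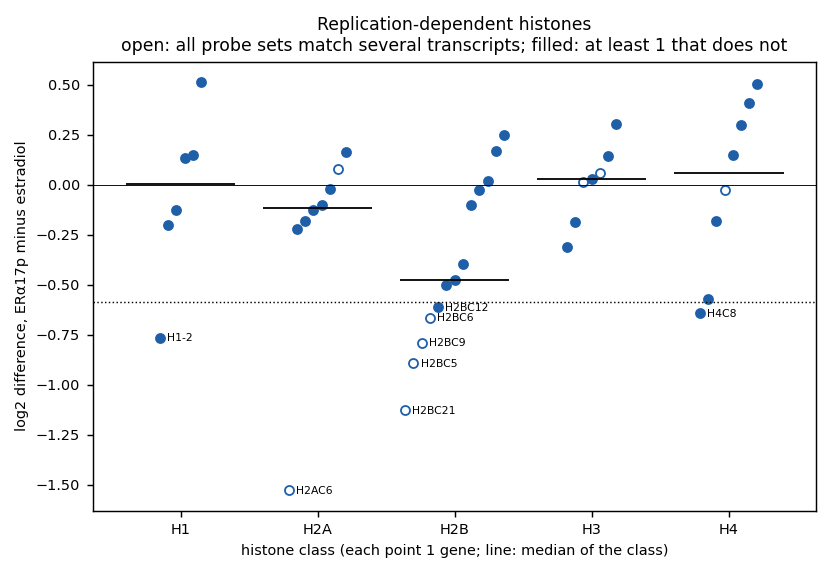
Log2 difference (ERα17p minus estradiol, y axis) of 42 replication-dependent histone genes by class, with the class median as a line and 1.5-fold as a dotted line; open points are genes measured only by probe sets that match several transcripts. The H2B class has a median of -0.47, and 4 of its 5 genes past 1.5-fold are open points.

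The octamer ATTTGCAT, the site of the factor Oct-1 in many H2B promoters, was found in 623 of the 35116 windows (1.77%) on either strand. The windows below show it for H2AC6 and H2BC4, which are neighbours that share 1 site, and for H2BC21, H2BC9 and H2BC12. H2BC14, whose difference was 0.17, is set beside them as a copy with the same letters and no lower value.
H2AC6, chr6:26124030-26124061, plus strand: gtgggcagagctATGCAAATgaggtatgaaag
H2BC4, chr6:26124030-26124061, minus strand: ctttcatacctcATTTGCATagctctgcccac
H2BC21, chr1:149886709-149886740, minus strand: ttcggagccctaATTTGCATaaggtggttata
H2BC9, chr6:26251553-26251584, plus strand: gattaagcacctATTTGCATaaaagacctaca
H2BC12, chr6:27146885-27146916, minus strand: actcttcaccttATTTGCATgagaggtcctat
H2BC14, chr6:27814962-27814993, plus strand: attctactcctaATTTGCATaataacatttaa

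Histone genes with the octamer had a median of -0.31 over 16 genes, with 5 past 1.5-fold, and those without it a median of -0.06 over 24 genes, with 3 past 1.5-fold. Of the 16, 10 were H2B genes and 6 were H2A genes. Like H2AC6 and H2BC4, H2AC17 and H2BC17 share 1 site, as do H2AC14 and H2BC14. Of the 5 past 1.5-fold, H2AC6, H2BC21, H2BC9 and H2BC6 were measured only by probe sets that match several transcripts. Their signal cannot be tied to the copy whose promoter was read. Within H2B, the 10 genes with the octamer had a median of -0.49, with 4 past 1.5-fold, and the 3 without it a median of -0.10, with 1 past 1.5-fold. Within H2A, the 6 genes with it had a median of -0.10 and the 2 without it -0.11. Outside the histone lists, 292 genes with the octamer had a median of -0.01, and 10 of them (3.42%) were at least 1.5-fold lower, beside 1.84% of all genes with a promoter window but no octamer. Genes that make and process histone messages had a median of 0.07 over 14 members, with CPSF1, a cleavage factor subunit, lowest at -0.59. Of 9 histone variants, which are made outside the replication programme, H1-10 was past 1.5-fold at -0.62, and the median was -0.11.

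Metallothioneins, small proteins that hold zinc and copper and are induced by metal, lay below 0 for 7 of 7 members, beside 52.9% of all genes, with a median of -0.30. None reached 1.5-fold. When probe sets with several target transcripts were dropped, the 2 genes left had a median of -0.58, and 1 of them, MT1G, was past 1.5-fold at -0.65. Their values ran from 0.21 to 0.40 with estradiol and from -0.26 to 0.03 with ERα17p. MT1M differed by -0.52, MT1F by -0.47, MT1G by -0.42 and MT2A by -0.18. Their sequences are near-identical, and 5 of the 7 were measured only by probe sets that match several transcripts, so the members are not separate pieces of evidence.

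Genes of the aryl hydrocarbon receptor pathway, whose enzymes oxidise foreign compounds and also hydroxylate oestrogens, lay above 0 for 8 of 9 members, with the highest median of all 43 lists, 0.20. With the probe set nearest to 0 for each gene, 6 of 9 lay above 0 and the median was 0.11. ALDH3A1, an aldehyde dehydrogenase induced by the receptor, read -0.69 with estradiol, 0.33 with ERα17p and -0.08 with vehicle, a difference of 1.03. CYP1B1, which makes 4-hydroxyestradiol, read -0.07 with estradiol, 0.38 with ERα17p and -3.23 with vehicle, and its 4 probe sets differed by 0.22 to 0.75. The 2 treated arrays were close to each other for CYP1B1 and far from vehicle. The receptor AHR differed by 0.22, its partner ARNT by 0.25 and its repressor AHRR by 0.20. CYP1A1, the enzyme most used as a readout of the receptor, differed by 0.11, and NQO1 was the member below 0, at -0.26.

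The receptors for estradiol showed small differences. ESR1, which encodes ERα, differed by -0.03, with 9 probe sets from -0.36 to 0.44. ESR2, which encodes ERβ, differed by 0.12, with 6 probe sets from -0.17 to 0.53. GPER1 differed by -0.19, with both probe sets below 0. The spread among the probe sets of 1 receptor exceeded these differences for ESR1 and ESR2. Among co-regulators, MED1, a Mediator subunit that binds nuclear receptors, differed by 0.60, with 4 probe sets from 0.05 to 0.74. The corepressor NRIP1 differed by 0.53, with probe sets at 0.11 and 0.94. Of the 13 receptors and co-regulators, 9 lay above 0, with a median of 0.12. With the probe set nearest to 0 the median was -0.01, and no member was past 1.5-fold there or with the mean of probe sets. PELP1, a scaffold for ERα outside the nucleus, differed by -0.16.

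Classical oestrogen-induced genes differed in both directions. Of 21 measured, 9 lay above 0 and 12 below, none was past 1.5-fold, and the median was -0.10, beside -0.01 for all genes. With the probe set nearest to 0 the median was -0.05. The cell cycle gene CCND1 differed by 0.44, with probe sets at 0.03 and 0.84, and the receptor kinase RET by -0.44. The chemokine CXCL12 differed by 0.38 and CTSD, the lysosomal protease cathepsin D, by -0.23.

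Early response and growth factor feedback genes were close to all genes, with medians of -0.02 over 30 immediate early genes and 0.00 over 16 feedback regulators. NR4A3, an orphan nuclear receptor, was the member past 1.5-fold at 0.77, with 3 probe sets from -0.27 to 0.79. Apoptosis promoters had a median of 0.00 over 22 genes and apoptosis inhibitors 0.07 over 12, with none past 1.5-fold. Among 18 p53 targets and cell cycle inhibitors the median was -0.01, and CDKN2B, an inhibitor of G1 kinases, lay lowest at -0.43.

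The motility programme had small differences. The actin cytoskeleton list had 29 of 42 members below 0 and a median of -0.07, with LCP1 past 1.5-fold and TAGLN, the actin-binding transgelin, at -0.55. Of 33 matrix, protease and adhesion genes, 2 were past 1.5-fold, the matrix proteins THBS2 at 0.66 and TNC at 0.61. PLAU, the urokinase that starts plasmin formation, differed by -0.40. The 3 probe sets of TNC ran from -0.38 to 0.75.

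Mitosis and G2/M genes lay below 0 for 19 of 30 members, with a median of -0.12, and 10 of the 20 members with several probe sets were lower on all of them, beside 19.9% of all such genes. HMMR, a spindle and hyaluronan-binding protein, differed by -0.61, the mitotic kinase PLK1 by -0.39 and the cyclin CCNB2 by -0.38. DNA replication and G1/S genes had a median of 0.00 over 38 members, with none past 1.5-fold.

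Stress responses differed in both directions. In the unfolded protein and integrated stress response the median of 22 genes was -0.16, while its extremes were HSP90B1 at 0.70 and CHAC1, an enzyme that breaks down glutathione, at -0.70. When probe sets with several target transcripts were dropped, which removes HSP90B1, 0 of the 16 members left were 1.5-fold higher. Heat shock genes had a median of 0.06 over 19 members. HMOX1, haem oxygenase, differed by -0.46 within an oxidative stress list whose median was -0.02. Cholesterol synthesis genes had a median of -0.13 over 17 members, with HMGCS1, an early enzyme of the pathway, at -0.44. With the probe set nearest to 0 for each gene, the median of cholesterol synthesis genes was -0.03. Hypoxia and glycolysis genes had a median of -0.06 over 27 and TGF-beta targets 0.02 over 14, with none past 1.5-fold in either list.

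Cytosolic ribosomal protein genes lay above 0 for 50 of 61 members, beside 46.7% of all genes, but the median was only 0.04. Of the 34 members with several probe sets, 21 were higher with ERα17p on all of them and 1 lower on all. Over all genes with several probe sets these shares were 16.8% and 19.9%. Once probe sets that match several transcripts were dropped, 37 members were left, 27 of them above 0, with a median of 0.05. RPL37 differed by 0.42, RPS29 by 0.40 and the testis copy RPL10L by 0.71. The nuclear-encoded respiratory chain subunits went the other way, with 48 of 73 below 0 and a median of -0.03. Mitochondrial ribosomal proteins, translation initiation factors and splicing factors had medians of 0.00, 0.00 and -0.01, and proteasome subunits -0.02, with none of their members past 1.5-fold.

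Transfer RNA synthetases had a median of -0.04 over 17 genes, with EPRS1 at 0.60 and SARS1 at -0.49. The 3 probe sets of EPRS1 ran from -0.10 to 0.84. Of 466 zinc finger genes, the values of 6 (1.29%) were higher by 1.5-fold or more and those of 9 (1.93%) lower, and the median was -0.03. Of 1844 long non-coding and antisense genes, 29 (1.57%) were higher and 80 (4.34%) lower, also with a median of -0.03. The shares over all genes were 1.29% and 2.04%. Only 437 of the 1844 had several probe sets, beside 10523 of all 19775 genes. Host genes of microRNAs and small nucleolar RNAs lay below 0 for 27 of 43 members, and SNHG28 was past 1.5-fold at -0.59.

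Marker lists of cell types had medians within 0.1 of 0. Luminal breast markers had a median of -0.09 over 11 genes, with EPCAM lowest at -0.36. Of these 11, 10 lay below 0, beside 52.9% of all genes, and 7 did with the probe set nearest to 0. Mesenchymal-like markers had a median of 0.04 over 11, blood cell markers 0.06 over 7, and fibroblast and endothelial markers 0.00 over 10, where LUM was past 1.5-fold at -0.63 with its probe sets at -1.36 and 0.10. Over all 43 lists, 30 medians lay within 0.1 of 0, 11 below that range and 2 above it. These counts depend on the summary of probe sets. With the probe set nearest to 0, only metallothioneins (-0.27), type I interferon-stimulated genes (-0.18) and MHC class II (-0.135) lay below that range. Only the AHR pathway (0.11) then lay above it.

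**Figure D5:**
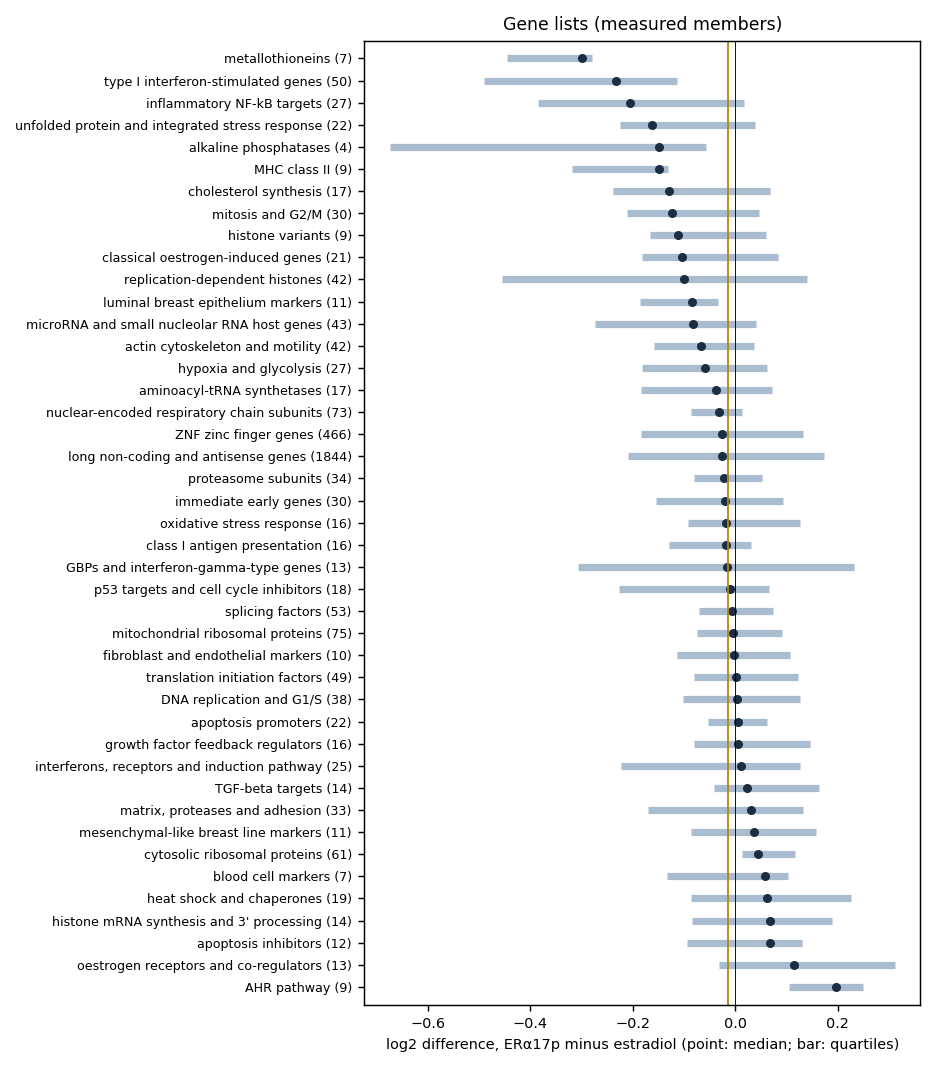
Median (point) and quartiles (bar) of the log2 difference (ERα17p minus estradiol, x axis) for 43 gene lists, with the number of measured members in brackets; the orange line marks the median of all genes, -0.01. Metallothioneins (-0.30) and type I interferon-stimulated genes (-0.23) have the lowest medians and the AHR pathway (0.20) the highest.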

How the data were processed

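Total RNA was hybridised to 1 array per group, and per the submitters' processing notes the authors used RMA, which background-corrects, quantile-normalises and summarises probes; its version is not given. The deposited values were taken as log2, the usual scale of RMA output; their log base and centring reference are not given in the sources used here. Of 54675 probe sets, 41097 had 1 gene symbol, 1801 several and 11777 none in the platform annotation, and those without a single symbol were left out. Gene values are medians of probe sets, computed with Python 3.11.15, pandas 2.3.3 and numpy 2.4.6, and the scripts were tested on simulated data. Centring removes levels, so no filter on low values was possible.

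Named genes were the 12 largest differences in each direction with every probe set of the gene on 1 side of 0, the 10 most concordant genes with several probe sets in each direction, up to 5 members per list (12 for histones and type I interferon-stimulated genes) by absolute difference, and ESR1, ESR2 and GPER1; other members named were chosen after their values were seen. The genes and lists were chosen with earlier results of these data known. The alternatives were another summary of probe sets, no probe sets that match several transcripts, quantile normalisation, scaling to equal spread and leaving out the farthest list member.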

Additional observations from a re-analysis of the deposited data

How the results depend on the processing

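No paired analysis was possible because each group had 1 array. For the same reason no array could be left out, and the centring allowed no filter on low values. Quantile normalisation over 3 arrays, which brings in the wider spread of the vehicle array, gave 81 genes at least 2-fold higher and 181 lower with ERα17p, and 643 at least 1.5-fold higher and 899 lower; the 7 and 42 genes past 2-fold in the text were all among them. Leaving out probe sets that match several transcripts gave 14 genes at least 2-fold higher, a metallothionein median of -0.58 over the 2 genes left, and an H2B median of -0.10. The H2B median was -0.72 with quantile normalisation over 3 arrays; this class was examined after seeing the data. The median of type I interferon-stimulated genes ran from -0.30 to -0.18 over all alternatives. With the probe set nearest to 0 for each gene, the median of histone variants became 0.0044, that of oestrogen receptors and co-regulators -0.0075, EPRS1 -0.10, LUM 0.10, NR4A3 -0.27, SAMD9L 0.00053, TLR3 0.053 and TNC -0.38, and LUM was also 0.10 once probe sets with several target transcripts were dropped. Of 80 named genes past 1.5-fold, between 67 and 80 were still past it in the same direction under the alternatives that measured all of them, and 59 of the 64 left without probe sets that match several transcripts.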

Other observations

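Genes of the SMC complexes, rings that hold and fold chromosomes, were a group that the lists above did not hold; it was put together after some of its members had been seen, so its counts support nothing. Of 23 cohesin, condensin and SMC5/6 genes, 15 lay above 0, with a median log2 difference of 0.11 (ERα17p minus estradiol), 4 were at least 1.5-fold higher and 0 were lower. SMC3, a ring subunit of cohesin, differed by 0.82, its partner STAG2 by 0.74, the cohesin acetylase ESCO1 by 0.66 and SMC5, which acts in repair, by 0.61. The 3 probe sets of SMC5 ran from 0.31 to 0.99. SMC3, STAG2 and ESCO1 each had at least 1 probe set below 0, with lows of -0.05, -0.18 and -0.13. Among the remaining members SMC1A differed by 0.38 on probe sets from 0.13 to 0.64, RAD21 by 0.32 and sororin, which guards cohesin and is encoded by CDCA5, by -0.24.

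Of the 11777 probe sets with no gene symbol, 36 (0.31%) were at least 2-fold higher with ERα17p and 32 (0.27%) lower. Among the 41097 with 1 symbol, 93 (0.23%) were higher and 129 (0.31%) lower. The treated arrays lay on opposite sides of the vehicle array for 4219 of 19775 genes, and for 0 of these were both distances at least 1.5-fold.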
